A study of Homo sapiens with 4 samples.

Results

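The alpha-actinin genes ACTN1 and ACTN4 were followed through every deposited alternative splicing event that carries either gene symbol. Their 34 events were found among 121269 events in the 5 event tables, 23 in ACTN1 and 11 in ACTN4. Of these, 7 were events of mutually exclusive exons (MXE) and 27 were skipped exon (SE) events on 23 distinct exons, and none lay at alternative splice sites or retained introns. Both genes were selected on values measured in these same libraries, the PSI of their events with each oligonucleotide, so the difference between the groups is described below and no significance is read from it.

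The libraries came from U87MG cells, a glioblastoma cell line, transfected with lipofectamine and 2.5 µM of oligonucleotide. RBFOXi, a decoy oligonucleotide that carries repeats of the RBFOX1/2 motif, was given to the cells of 2 libraries and SCRM, a control oligonucleotide with a scrambled sequence, to those of the other 2. The sample labels name the dye Cy5 on the oligonucleotide of RBFOXi replicate 1 and none for the other 3 libraries, so within the RBFOXi group the dye and the replicate cannot be told apart. No untransfected cells and no RBFOX knockdown cells were analysed here.

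Alpha-actinins are antiparallel dimers that cross-link actin filaments and tie them to focal adhesions and cell junctions. Each subunit has an actin-binding domain, a rod of spectrin repeats and a calmodulin-like domain with EF hands, through which calcium weakens actin binding in the non-muscle forms. ACTN1 and ACTN4 encode the non-muscle proteins, and in both genes a pair of neighbouring exons within the EF-hand coding region is used alternatively, the longer known as the non-muscle exon and the shorter, in ACTN1, as the smooth muscle exon. RBFOX1 and RBFOX2 bind UGCAUG or GCAUG in pre-mRNA, and where they bind relative to an exon is known to influence whether the exon is included or skipped.

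The alternative exons are shown first because the events of the genes with a PSI away from full inclusion turn on them, apart from 6 MXE events that pair constitutive exons and 1 ACTN4 event with at most 4 counts per library. In hg19, which is GRCh37, the ACTN1 exon of 81 nt lies on the minus strand at chr14:69345706-69345786, and the exon of 66 nt follows it at chr14:69345175-69345240 after an intron of 465 nt. Both are coding, both keep the reading frame (27 and 22 codons), and both stand between AG and GT. An exon of 147 nt precedes the pair and an exon of 159 nt follows it. The ACTN4 exons lie on the plus strand at chr19:39218586-39218666 (81 nt) and chr19:39218956-39219021 (66 nt). The exons are printed 5′ to 3′ on the strand of the gene, with capitals for the RBFOX motif read as DNA (GCATG):
ACTN1 exon of 81 nt: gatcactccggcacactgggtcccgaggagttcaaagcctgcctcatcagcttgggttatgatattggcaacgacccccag
ACTN4 exon of 81 nt: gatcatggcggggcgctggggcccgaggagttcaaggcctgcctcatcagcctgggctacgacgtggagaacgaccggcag
ACTN1 exon of 66 nt: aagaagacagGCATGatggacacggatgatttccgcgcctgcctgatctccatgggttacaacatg
ACTN4 exon of 66 nt: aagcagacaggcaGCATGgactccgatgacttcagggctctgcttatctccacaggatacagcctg

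The exons of 81 nt share 63 of 81 bases between the genes (77.8%) and the exons of 66 nt share 48 of 66 (72.7%). Both exons of 66 nt hold a copy of GCAUG, and neither exon of 81 nt does. Among the basic protein-coding transcripts of GENCODE, 3 of ACTN1 hold the exon of 81 nt alone, 6 the exon of 66 nt alone, 4 both and 1 neither. For ACTN4, 4 hold the exon of 81 nt and 1 the exon of 66 nt. The transcript chosen as the representative of ACTN1 (914 codons) is one of those with both exons, and transcripts of 892 codons with the exon of 81 nt and of 887 codons with the exon of 66 nt are annotated beside it.

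The introns beside the longer exons are shown because they hold the copies of the RBFOX motif nearest to the exons of 81 nt. Capitals mark TGCATG or, in the intron before the ACTN1 exon, GCATG. The 3 stretches lie at chr14:69345666-69345705 and chr14:69345787-69345906 on the minus strand and at chr19:39218496-39218585 on the plus strand:
first 40 nt of the intron after the ACTN1 exon of 81 nt: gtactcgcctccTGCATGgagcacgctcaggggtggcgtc
last 120 nt of the intron before the ACTN1 exon of 81 nt: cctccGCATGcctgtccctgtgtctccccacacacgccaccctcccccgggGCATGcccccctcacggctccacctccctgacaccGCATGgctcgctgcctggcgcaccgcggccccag
last 90 nt of the intron before the ACTN4 exon of 81 nt: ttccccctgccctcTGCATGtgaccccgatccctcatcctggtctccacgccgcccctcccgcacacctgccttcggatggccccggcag

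UGCAUG began 13 nt into the intron after the ACTN1 exon of 81 nt, at chr14:69345688-69345693. The same copy lay 453 nt before the exon of 66 nt, since the exons share this intron. Before the exon of 81 nt, GCAUG without the leading U began 34, 69, 115 and 377 nt from the exon. The ACTN1 exon of 66 nt had no copy of either motif within 300 nt on either side, and the nearest GCAUG after it began at 329 and 350 nt. ACTN4 differed in this arrangement, with 1 UGCAUG, which began 76 nt before its exon of 81 nt, and none in the 289 nt of intron between its exons. The letters were searched on the strand of the gene only, in introns cut at the next exon, and each UGCAUG also holds a GCAUG. Among 30617 distinct tested skipped exons of all genes, 8.36% had UGCAUG in the first 300 nt of the intron after the exon and 8.15% in the last 300 nt before it, and GCAUG was found in 24.1% and 23.7%. A match of letters is a description of these windows and does not show binding.

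**Figure D1:**
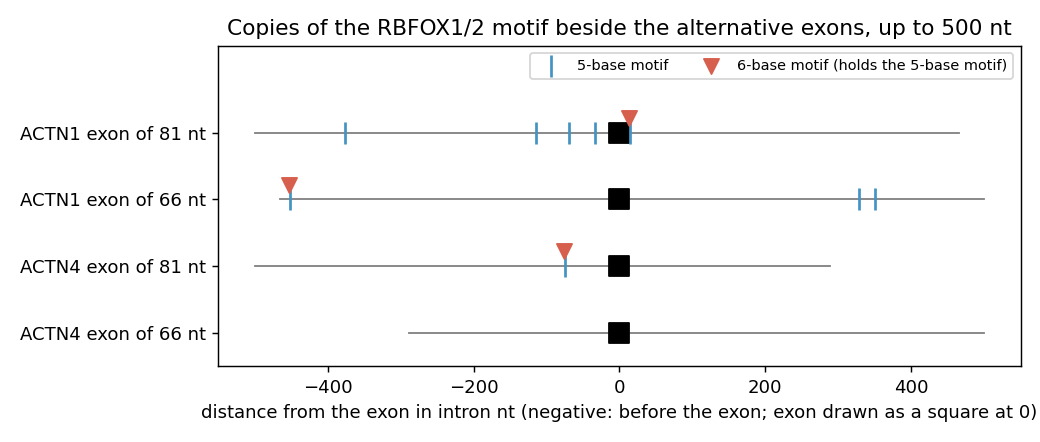
Distance in nt of intron from each alternative alpha-actinin exon (black square at 0, not drawn to its length) to copies of the RBFOX motif on the strand of the gene, up to 500 nt or the next exon. Blue bars mark the motif of 5 bases, red triangles the motif of 6 bases that holds it, and grey lines the intron searched. The ACTN1 exon of 81 nt has a copy of the longer motif 13 nt after it, while the ACTN4 exon of 81 nt has its copy 76 nt before it.

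The proportion spliced in (PSI, from 0 to 1) was computed per library from the counts of the inclusion and skipping forms, each divided by its effective length, the number of read positions that can show that form. Delta PSI is the mean of the RBFOXi libraries minus the mean of the SCRM libraries. An event was tested if no library had fewer than 5 counts, the libraries averaged 20 or more, and each form was seen 4 times or more in all. The log2 odds of inclusion were fitted with limma together with those of all other genes, and an event was called when its adjusted p-value was under 0.05 and its delta PSI was 0.1 or more in either direction. All 7 MXE events and 15 of the 27 SE events passed this filter (10 of 17 in ACTN1 and 5 of 10 in ACTN4). Of the 12 others, 11 held almost no skipping counts and 1 almost no counts.

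The whole series set the following frame. Counts summed over SE events ran from 114415530 to 136097319 per library. Of 8 glioblastoma markers, 5 (VIM, CD44, NES, TNC and FN1) had SE events, all with at least 100 counts in every library, whereas GFAP, SOX2 and OLIG2 had none. Of 6 muscle genes 5 had SE events, and 3 of them (DES, ACTG2 and TTN) stayed under 20 counts in every library. MYH3 had 14 to 80 counts, and CNN1, which encodes the smooth muscle protein calponin, had 231 to 428 and so the largest part of the list. Summed over the 5 genes, the counts were 282 and 545 with RBFOXi and 259 and 456 with SCRM, so the groups overlapped. CD68 had 45649 to 65957 counts while PTPRC, the other blood marker, had no event. The endothelial markers had none, and of the epithelial markers KRT8 had 153 to 247 counts and the others none. A gene can lack an SE event for want of annotated exons and not only for want of RNA.

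Among the MXE events, the pair of ACTN1 exons of 81 and 66 nt was the one with a difference in PSI above 0.02 in size. Its PSI, the share of the exon of 81 nt, was 0.982 and 0.984 in the RBFOXi libraries and 0.906 and 0.936 in the SCRM libraries. The RBFOXi libraries lay above both SCRM libraries and within 0.002 of each other. The exon of 81 nt was thus the main form in all 4 libraries, and the exon of 66 nt made up the smaller part, which was larger with SCRM. The means were 0.983 ± 0.00128 and 0.921 ± 0.0211 (SD, n = 2 each), a delta PSI of 0.0619. The exon of 81 nt held 4556 and 6436 counts with RBFOXi and 4664 and 4701 with SCRM. For the exon of 66 nt there were 67 and 85 counts with RBFOXi against 386 and 257 with SCRM. This event was not called. Its delta PSI is below the minimum, and no MXE event of any gene had an adjusted p-value under the threshold in limma. By limma, 0 of 26176 tested MXE events of all genes were called (0%), with an unadjusted p-value under 0.05 in 395 (1.51%). Of the 7 alpha-actinin events, 0 were called in the quasi-binomial F test or in Fisher's exact test on summed counts as well. The groups did not overlap in 2 of the 7, both higher with RBFOXi, against 24.4% of all tested MXE events in either direction and 16% with RBFOXi higher.

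The same exons appeared in 4 SE events, which differ in the flanking exons that rMATS assigned to them. For the exon of 81 nt between the exons of 147 and 66 nt, PSI was 0.966 and 0.971 with RBFOXi and 0.838 and 0.895 with SCRM. Again both RBFOXi libraries lay above both SCRM libraries, and the SCRM libraries stood further apart than the RBFOXi libraries. The inclusion counts were 2435 and 3524 with RBFOXi and 2467 and 2527 with SCRM. The skipping counts, from the junction that joins the exon of 147 nt directly to the exon of 66 nt, were 42 and 51 with RBFOXi and 232 and 145 with SCRM. The means were 0.969 ± 0.00378 and 0.867 ± 0.0399 (SD, n = 2 each), with a delta PSI of 0.102. This was the 1 alpha-actinin event that was called, where the background over all genes was 0.0682% of 39615 tested SE events in either direction and 0.0151% with higher PSI after RBFOXi. The call lies close to the delta PSI minimum, and its adjusted p-value in limma was 0.0347. With a pseudocount of 0.1 the adjusted p-value in limma was 0.552 and the call was lost. The call was also lost without SCRM replicate 1 (delta PSI 0.0738), without SCRM replicate 2 (0.13) and without RBFOXi replicate 2 (0.0993). It held without RBFOXi replicate 1 (0.105). Without SCRM replicate 2 the delta PSI was above the minimum, so there the loss came from the adjusted p-value. Where 1 library of a group was left out, the remaining library was assumed to vary like the other group.

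For the same exon between the exons of 147 and 159 nt, PSI was 0.995 and 0.997 with RBFOXi and 0.989 and 0.993 with SCRM. Here the skipping form joins the exon of 147 nt to the exon of 159 nt and leaves out both alternative exons, so that the exon of 66 nt does not enter. The delta PSI was 0.00525. The exon of 66 nt between the exons of 81 and 159 nt had a PSI of 0.00848 and 0.00832 with RBFOXi and 0.0469 and 0.0353 with SCRM, a delta PSI of -0.0327. Both RBFOXi libraries lay below both SCRM libraries. Between the exons of 147 and 159 nt, the exon of 66 nt had a PSI of 0.803 and 0.838 with RBFOXi and of 0.901 and 0.908 with SCRM, a delta PSI of -0.0841. This high PSI has the rare form without either exon as its counterpart (12 and 12 skipping counts with RBFOXi, 31 and 19 with SCRM) and does not mean that the exon of 66 nt was common. The 4 SE events and the MXE event share reads and are not separate observations.

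**Figure D2:**
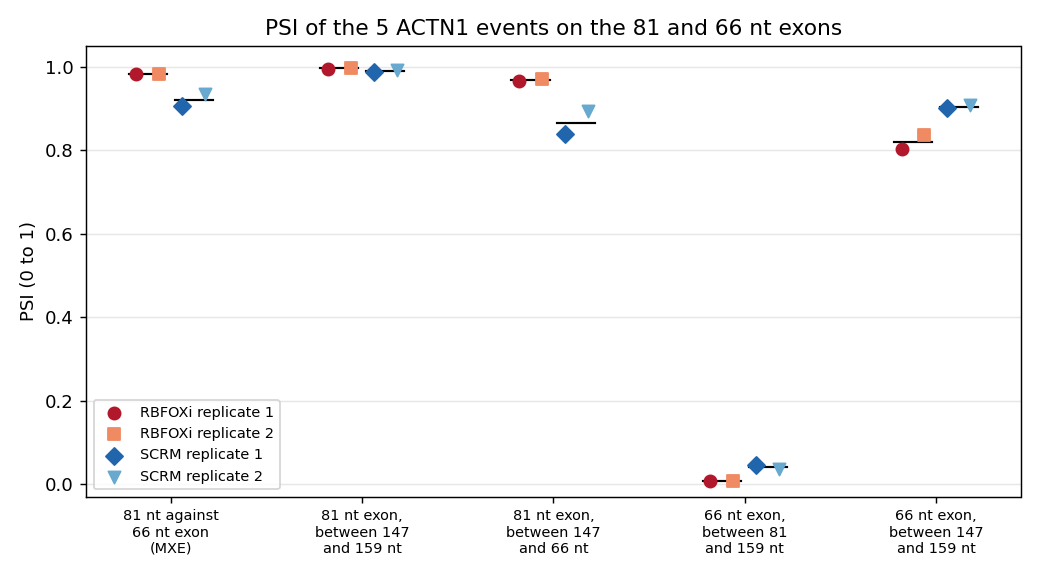
PSI (0 to 1) of the 5 ACTN1 events on the exons of 81 and 66 nt, 1 point per library and a black line at the mean of each group of 2. The points with RBFOXi lie above those with SCRM in the 3 events that measure the exon of 81 nt and below them in the 2 that measure the exon of 66 nt, and the level depends on the flanking exons of the event.

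Because the events answer with PSI values from 0.00832 to 0.997 for one and the same pair of exons, the junctions themselves were separated. The alternative exons are shorter than the reads, so the inclusion counts of these events are sums of 2 junction counts, and each junction could be obtained by subtraction. The junction between the exons of 81 and 66 nt was obtained by 2 routes, which gave the same count in all 4 libraries.

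From the exon of 147 nt to the exon of 81 nt there were 2434 and 3523 counts with RBFOXi and 2466 and 2525 with SCRM. From the exon of 147 nt to the exon of 66 nt there were 42 and 51 against 232 and 145. Thus RBFOXi replicate 2 was the highest library for the first junction, and the SCRM libraries were both higher for the second. Of the reads that left the exon of 147 nt, 1.69% (95% Wilson interval 1.25 to 2.27) and 1.42% (1.08 to 1.86) went to the exon of 66 nt with RBFOXi. With SCRM the shares were 8.50% (7.51 to 9.61) and 5.39% (4.60 to 6.31). The intervals of the SCRM replicates did not overlap each other, so these replicates differed by more than counting error, and both lay above the RBFOXi intervals. Such intervals cover counting error only. Corrected for junction length, the share was 1.94% ± 0.234 with RBFOXi and 8.57% ± 2.67 with SCRM (SD, n = 2 each), a difference of -6.62 percentage points or 4.41 times as much with SCRM.

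On the other side of the exons, 25 and 34 counts joined the exon of 66 nt to the exon of 159 nt with RBFOXi and 154 and 112 with SCRM. The junction from the exon of 81 nt to the exon of 159 nt had 2122 and 2913 counts with RBFOXi and 2198 and 2176 with SCRM. Corrected for length, the exon of 66 nt supplied 1.44% ± 0.00807 of the junctions into the exon of 159 nt with RBFOXi and 7.01% ± 1.39 with SCRM (SD, n = 2 each), 4.85 times as much. The junctions on both sides of the exon of 66 nt separated the groups in the same order, and the ends of 1 read pair may add to both. The libraries hold RNA of all cells together, so a larger number of cells that use the exon of 66 nt and a larger use in every cell cannot be told apart.

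Transcripts with both exons were almost absent. The junction from the exon of 81 nt to the exon of 66 nt had 1 and 1 counts with RBFOXi and 1 and 2 with SCRM. These were between 0.0343% and 0.0918% of the counts of junctions out of the exon of 81 nt, not corrected for length. The highest of the 4 Wilson upper bounds on these uncorrected shares was 0.334%. The effective length is 47 for this junction and 74 for the one to the exon of 159 nt, so shares corrected for length would be larger. No difference between the groups was detectable at this depth, although 4 annotated ACTN1 transcripts, including the representative one, hold both exons. The junction that leaves out both exons had 12 and 12 counts with RBFOXi and 31 and 19 with SCRM. Corrected for length, this was 0.350% ± 0.0894 of the junctions out of the exon of 147 nt with RBFOXi and 0.779% ± 0.253 with SCRM (SD, n = 2 each).

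**Figure D3:**
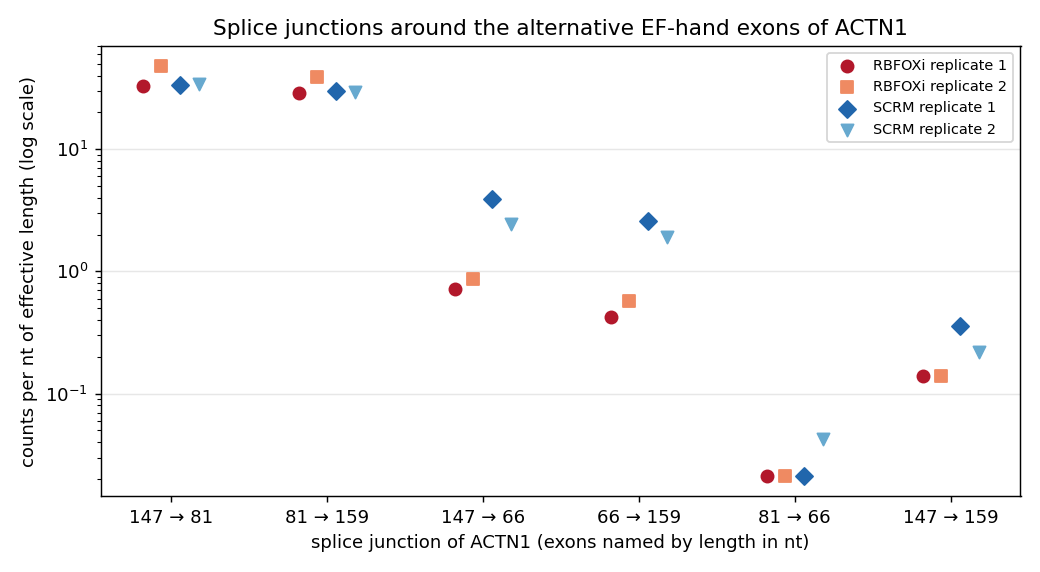
Counts per nt of effective length (log scale) of the 6 ACTN1 splice junctions among the exons of 147, 81, 66 and 159 nt, 1 point per library. Both junctions of the exon of 66 nt are higher with SCRM in both replicates, those of the exon of 81 nt overlap between the groups, and the junction that joins the alternative exons rests on 1 or 2 counts.

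From single junctions, the PSI of the exon of 81 nt against the exon of 66 nt was 0.979 and 0.982 with RBFOXi and 0.895 and 0.933 with SCRM. The difference of the means was 0.0669, close to the 0.0619 of the MXE event and below the 0.102 of the called SE event. The latter is larger because its inclusion form counts the junctions 147 to 81 and 81 to 66, of which the second is nearly empty, but divides by the length of both. This separation was chosen after the data were seen.

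Coverage along both genes differed between the SCRM replicates. For the ACTN1 exon of 115 nt, the one nearest the 5′ end, the inclusion counts were 7281 and 10187 with RBFOXi, 3517 in SCRM replicate 1 and 10319 in SCRM replicate 2. The ratio of replicate 1 to replicate 2 across 12 ACTN1 exons ran from 0.341 at the 5′ end to 1.01 near the 3′ end with SCRM, and stayed between 0.695 and 0.742 with RBFOXi. Across 9 ACTN4 exons it ran from 0.321 to 1.03 with SCRM and from 0.881 to 0.967 with RBFOXi. SCRM replicate 1 therefore held relatively few reads from the 5′ parts of both genes, while at the alternative exons, near the 3′ end, the SCRM replicates were about equal (0.992 for the ACTN1 exon of 81 nt). SCRM replicate 1 was also the library with the lowest PSI of the exon of 81 nt. What part the uneven coverage has in the PSI values was not tested. Without that library the delta PSI of the MXE event was 0.0470, with both RBFOXi libraries still above SCRM replicate 2.

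**Figure D4:**
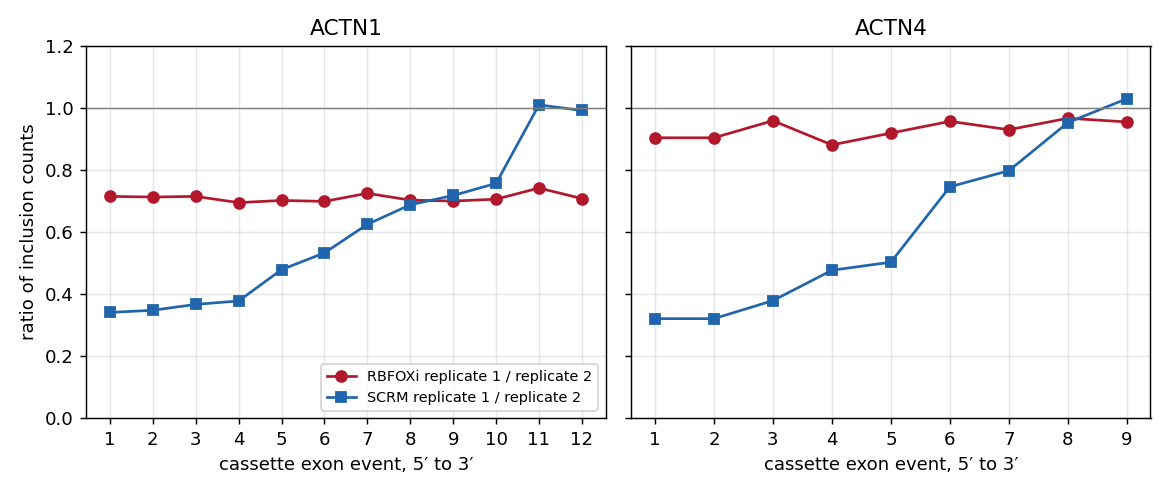
Ratio of inclusion counts of replicate 1 to replicate 2 within each group, for cassette exon events of ACTN1 (12 exons) and ACTN4 (9 exons) ordered from the 5′ to the 3′ end. The RBFOXi ratio is level along both genes, whereas the SCRM ratio climbs from 0.341 to 1.01 in ACTN1 and from 0.321 to 1.03 in ACTN4.

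In ACTN4 the exon of 81 nt was measured in 1 SE event, against the form that leaves out both alternative exons. Its PSI lay between 0.999 and 1.00 in all 4 libraries, with inclusion counts of 11224 and 11611 with RBFOXi and 10512 and 11028 with SCRM. The skipping counts were 3 and 9 with RBFOXi and 9 and 2 with SCRM, and the groups overlapped. The ACTN4 exon of 66 nt is in no deposited event, so its use was not measured here. A transcript with that exon in place of the exon of 81 nt would not have counted as skipping, just as the lowest PSI of the corresponding ACTN1 event in any library was 0.989 while the exon of 66 nt was in use.

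The exons outside the alternative pairs were included almost fully. In 21 further SE events with 1702 to 31516 counts per library, the lowest PSI in any library was 0.989 and the largest absolute delta PSI 0.00115. The 13 events of ACTN1 had at most 20 skipping counts in a library. The 8 events of ACTN4 had at most 28, and a PSI of at least 0.996. A single ACTN4 event, on an exon of 93 nt at chr19:39205109-39205201, had 0 to 4 counts per library and was not tested. Among the 15 tested SE events the median delta PSI was -0.00016, beside -5.65e-05 over all tested SE events. The groups did not overlap in 5 of the 15, 2 higher and 3 lower with RBFOXi, against 30.8% of all tested SE events (14.3% higher and 16.5% lower), and 4 of the 5 were the events on the ACTN1 exons of 81 and 66 nt. The fifth was the ACTN1 exon of 93 nt, with a PSI from 0.999 to 1.00.

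The 6 other MXE events paired exons that annotated transcripts hold together. In each, the pair stands together in at least 13 of 14 basic protein-coding transcripts of ACTN1 or 4 of 5 of ACTN4, against 4 of 14 for the exons of 81 and 66 nt. Their PSI lay between 0.440 and 0.747 on 3294 to 20780 counts, and the largest absolute delta PSI was 0.0144. Such middle values do not measure a choice between the exons, since 8 of the 9 exons involved also had SE events and were included there with a PSI of at least 0.989. The largest of the 6 differences belonged to the ACTN1 exons of 141 and 183 nt, whose PSI was 0.463 and 0.461 with RBFOXi and 0.440 and 0.455 with SCRM. The median delta PSI of the 7 MXE events was 0.00861, beside 0.01 over all tested MXE events.

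**Figure D5:**
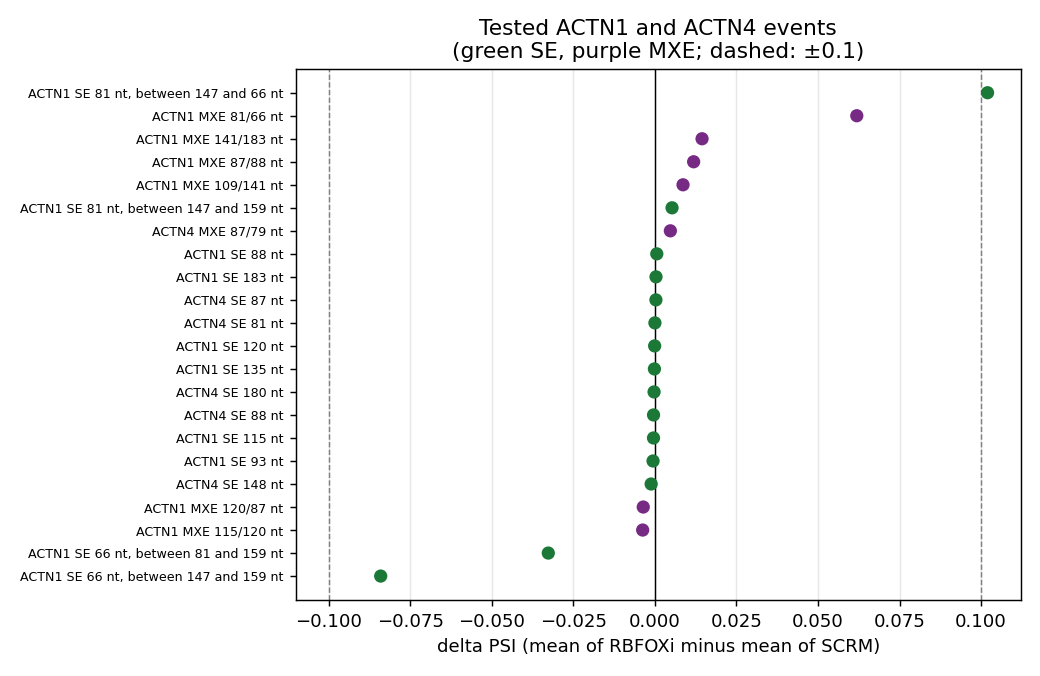
Delta PSI (mean of RBFOXi minus mean of SCRM) of the 22 tested alpha-actinin events, with SE events in green, MXE events in purple and dashed lines at the minimum of 0.1 in either direction. The exon lengths name each event, and for MXE events the exon whose share is the PSI stands first. The events on the ACTN1 exons of 81 and 66 nt run from -0.0841 to 0.102, and the others lie within 0.0144 of 0.

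The SE events of other genes most like the called ACTN1 event were found by the distance between log2 odds of inclusion over the 4 libraries. They were ANKS3 (distance 0.46), TPCN2 (0.527), MBNL1 (0.664), PTPN22 (0.701) and SLC9A5 (0.723). The best covered was the TPCN2 exon of 103 nt, with at least 111 counts per library and a PSI of 0.978 and 0.979 with RBFOXi and 0.891 and 0.912 with SCRM. For the MBNL1 exon of 36 nt, in a gene that encodes another splicing regulator, PSI was 0.960 and 0.957 against 0.849 and 0.884. The ANKS3, MBNL1, PTPN22 and SLC9A5 events rested on as few as 26, 24, 8 and 38 counts in a library, and in PTPN22 the groups overlapped.

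The partners of alpha-actinin were described from a list of 41 genes, of which 27 had tested SE events (169 events in all). By limma 0 of the 169 were called, and 11 had an unadjusted p-value under 0.05, which 3.61% of the tested SE events of all genes had. The quasi-binomial F test called 1 of the 169, beside 0.121% over all genes. With counts summed over replicates, Fisher's exact test called 4, beside 0.8%. The groups did not overlap in 32.5% of the events (20 higher and 35 lower with RBFOXi), beside 30.8% over all genes, and the median delta PSI was -0.00042. The muscle paralogs ACTN2 and ACTN3 had no tested event. In the spectrin superfamily, where 4 of 8 genes had tested events, 0 events were higher and 10 lower with RBFOXi without overlap, of 24 (41.7%). For the focal adhesion genes the numbers were 9 higher and 11 lower of 75 (26.7%), for Z-disc and stress fibre genes 5 and 5 of 33 (30.3%), and for other actin cross-linkers 6 and 9 of 37 (40.5%). Events of 1 gene share reads, so these are not independent counts.

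The largest difference among partner events without overlap was in UTRN, which encodes utrophin, a spectrin-repeat protein that links actin to the membrane. Its exon of 39 nt at chr6:145148484-145148522 had a PSI of 0.732 and 0.627 with RBFOXi and 1.00 and 0.931 with SCRM. It rested on 84 and 76 counts with RBFOXi and on 13 and 113 with SCRM. limma did not call it with the settings given above, whereas limma with the replicate block, limma without RBFOXi replicate 1 and Fisher's exact test did. Filamin A, another actin cross-linker, was named after its values were seen because its 24 nt exon (FLNA, chrX:153585619-153585642) was covered by 3182 to 6582 counts. Its PSI was 0.621 and 0.633 with RBFOXi and 0.775 and 0.833 with SCRM, a delta PSI of -0.177. limma did not call it with the settings given above but did with a pseudocount of 1, with a filter of 1 count, with the replicate block and without either RBFOXi library. Fisher's exact test also called it, and it was the 1 partner event called by the quasi-binomial F test.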

How the data were processed

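RNA-seq of U87MG cells (2 libraries with RBFOXi, 2 with SCRM, described as independent biological replicates) was analysed from 5 deposited rMATS tables. Per the labels and the study's methods, the authors used STAR 2.4.2a for alignment to hg19 and rMATS for counting reads on each event. The deposited counts are unnormalized inclusion and skipping reads, with an effective length for each form. The p-value, FDR, inclusion level and its difference, the authors' own comparison, were not used.

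PSI and log2 odds (pseudocount 0.5) were computed from these. limma 3.58.1 in R 4.3.3, with the condition alone and a variance trend, was fitted to all events of a type and adjusted by Benjamini-Hochberg within it. It was also run on simulated counts, in which the changed events had middle inclusion shares. That run does not cover events near full inclusion, such as the called ACTN1 event. Alternatives covered the test, pseudocount, filter, replicate block, delta PSI minimum, definition of PSI, centring, each library left out and the intron searched. Introns came from GRCh37 and transcripts from GENCODE. Python 3.11.15, pandas 2.3.3 and scipy 1.17.1 were used. Depth at the alternative ACTN1 exons was 4623 to 6521 counts per library.

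The members, the partner and marker lists and the tests were chosen with earlier results of these data known. PSI was given per library for the MXE event on the ACTN1 exons of 81 and 66 nt and for the other MXE event with the largest delta PSI. The remaining MXE events were given as a range. All SE events on the ACTN1 exons of 81 and 66 nt were given per library, those with a mean PSI from 0.05 to 0.95 in either group and those outside it. The ACTN4 exon of 81 nt was given by its counts. Also named were the 5 events nearest the alpha-actinin SE event with the largest delta PSI, and, as limma with these settings called no partner, the partner event with the largest difference without overlap.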

Additional observations from a re-analysis of the deposited data

How the results depend on the processing

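With 2 libraries a group the spread is poorly estimated. Of 115 values under alternative settings 102 stayed within the spread between replicates or within 1.5 times the count, and 13 moved. Some of the 102 could not move. A replicate block does not enter delta PSI, and most counts of called MXE events were held at 0 by the delta PSI minimum. The share that stayed is therefore no measure of stability, and the count of called SE events moved in 7 settings. No called value changed sign, but 4 small delta PSI values did when 1 SCRM library was left out, all of uncalled MXE events on constitutive exons, at most 0.0106 in size and within the spread. The count of alpha-actinin SE events called was 1 as described and 0 with a pseudocount of 0.1, a delta PSI minimum of 0.2, the plain share of counts as PSI, or log2 odds centred on their median, and ran from 0 to 1 when single libraries were left out. The count of MXE events called was 0 in all 15 settings. Their largest delta PSI in any setting was 0.0768, so a call was possible only with the delta PSI minimum of 0.05. In the other settings the count of 0 was fixed in advance and is no sign of stability. The delta PSI of the called ACTN1 event was 0.0545 with the plain share of counts and 0.0669 from single junctions, and from 0.0738 to 0.13 with single libraries left out; for the MXE event on the same exons this range was 0.0470 to 0.0768. In the fit with a replicate block, the counts called stayed at 1 SE and 0 MXE events. The numbers do not establish pairs, as there are 2 of them and the deviations of same-numbered libraries correlated at 0.0944 over SE events and 0.0881 over MXE events. Of the partner events, 3 were called with the replicate block, beside 119 (0.3%) of all tested SE events, and 0 without it. Settings for splice sites and retained introns gave no values, since no alpha-actinin event of these types was found. The effective lengths assume even coverage, and the junctions of the ACTN1 exon of 66 nt rest on 25 to 232 counts per library.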
